A study of Mus musculus with 6 samples.

Results

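The 10 genes described here encode matrix proteoglycans and cartilage proteins: Dcn, Lum, Bgn, Fmod, Ogn, Aspn, Vcan, Prelp, Comp and Mgp. They were taken as a fixed list of symbols, and every non-control probe carrying a RefSeq accession of one of them was read from the scanner files. A named probe was found for 9 of the 10, and these 9 stood among 11878 genes with a symbol, in 19657 features compared in all. No probe carried an accession of Vcan (versican, a large chondroitin sulfate proteoglycan), so Vcan was not analysed here. The 9 genes were read by 1 probe each, except Prelp with 2.

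The RNA came from embryonic fibroblasts of the mouse and was hybridised to 6 arrays in 1 colour. Of these, 3 carry the label wild type and 3 the label Rap1 knockout, Rap1 being a telomere-binding protein whose gene is Terf2ip. By the labels, all 6 cultures had received the SV40 large T antigen, which immortalises cells, and Cre recombinase, and all were kept in puromycin at 2 micrograms per ml. The targeted allele carries loxP sites around exon 3, which Cre removes. The labels do not state the Terf2ip alleles of the wild-type cells, the embryos' age, or whether the replicates are different embryos or different cultures. The p-values therefore cover only the variation among these 6 samples, which may be technical.

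Small leucine-rich proteoglycans are secreted proteins whose curved repeat domain binds collagen and whose chains of chondroitin, dermatan or keratan sulfate hold water and growth factors. Decorin, biglycan and asporin form class I, lumican, fibromodulin and PRELP class II, and osteoglycin class III. Fibroblasts, tendon and cartilage secrete them, and several set the thickness of collagen fibrils. Comp and Mgp are matrix proteins of other families: Comp is a thrombospondin of cartilage and tendon that binds collagen, and Mgp is a vitamin K-dependent inhibitor of calcification.

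Each array measured 25396 to 27633 of its 41174 probes (61.7% to 67.1%) well above background, and the number of arrays limits the precision. Terf2ip read −1.74 ± 0.08 (SD, n = 3) in wild type and −8.37 ± 0.63 in knockout cells, where no array measured it well above background, a fall of at least 38.3-fold in the processed signal (limma adjusted p = 0.00794). Its log2 difference was −6.63 in this fit and −2.62 with normexp background correction, which adds an offset that compresses dim signals. In the authors' value table it was −2.635, so the fold size depends on the processing. The direction held in all 18 alternatives that kept the probe, though several of these could not change the estimate. The call was lost with the slide block (limma adjusted p = 0.0626), the replicate block (0.177), the alike wild-type pair described next averaged (0.0652) and in 4 of the 6 fits that left out an array. All levels here are log2 processed signals relative to the array's 75th percentile, so they compare arrays for 1 probe and not 1 gene with another. Summed levels add the signals of several probes, so the brightest probe weighs most, and they too compare arrays only. Wild-type arrays 2 and 3 were nearly alike: their log2 difference had an SD of 0.25 over all features, against 0.83 to 1.25 for the other pairs of arrays. For the 9 genes these 2 arrays differed by 0.02 to 0.44, so the wild-type spread comes mostly from array 1. Of 10 fibroblast markers all 10 were well above background on all arrays, with a summed level of 8.80 to 9.00 in wild type and 8.16 to 8.88 in knockout cells. Thy1, Pdgfra, Prrx1 and Fn1 among them read lower on every knockout array than on any wild-type array, as did 5.89% of all features. Of other cell types, Pecam1, Cdh5, Tie1 and Tek (endothelium), Ptprc, Cd68 and Adgre1 (macrophage and blood), Cdh1 (epithelium) and Adipoq (fat) had no probe that could be compared, but other markers of these types did. Kdr (endothelium) was above background on all arrays, and Cd14 and Csf1r (macrophage) were compared. The summed level of 3 fat cell markers was 3.19 to 3.53 in wild type and −0.51 to 1.73 in knockout cells, led by Fabp4 and Lpl (differences −2.55 and −4.86). Plin1, also in that list, had a difference of 1.16, but only 2 of the 3 markers were well above background on each wild-type array. Plin1 was the dimmest of them there, at −7.73, −7.52 and −8.54, so its difference rests on readings near the floor. The summed level of 5 epithelial markers was 1.06 to 1.62 in wild type and 2.01 or more in knockout cells, mostly Krt18 (difference 1.53). Krt8 went the other way (−1.74), Epcam differed by 0.86, and Krt5 and Krt14 by −0.065 and −0.089. The summed level was 5.66 to 7.42 and 5.05 to 6.47 for 4 smooth muscle markers, and 0.76 to 0.85 and 0.67 to 1.36 for 4 osteoblast markers. None of these markers passed the threshold, and their part in the results was not tested.

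None of the 9 genes passed the threshold (0 higher, 0 lower, limma adjusted p between 0.312 and 0.993), where 0.0102% of all features were called. Mgp lay lower and Comp higher in knockout cells on every array, and for the other 7 the groups overlapped. The 1 gene separated downward stands against 5.89% of all features, and the 1 separated upward against 11.4%. At an unadjusted p under 0.05 there was again 1 in each direction, against 4.66% of features lower and 5.61% higher. Of the 9, 6 had a difference below 0 and 3 above. Their median was −0.68, beside 0.07 for all features. Both the median and the split rested on single arrays: without wild-type array 1 the median was −0.03 with 5 below 0 and 4 above, other single arrays left out gave −1.03 to −0.35, and on slide 2 alone it was 0.24 with 4 below and 5 above. The levels varied widely between single arrays: 7 of 9 ranged over at least 8-fold (3 on the log2 scale) across the 6 arrays, as did 8.16% of all features. Among features well above background on all 6 arrays, 4 of 6 of these genes and 5.38% of 18131 features did so. This compares a list chosen with earlier results known, and no test was run on it.

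**Figure D1:**
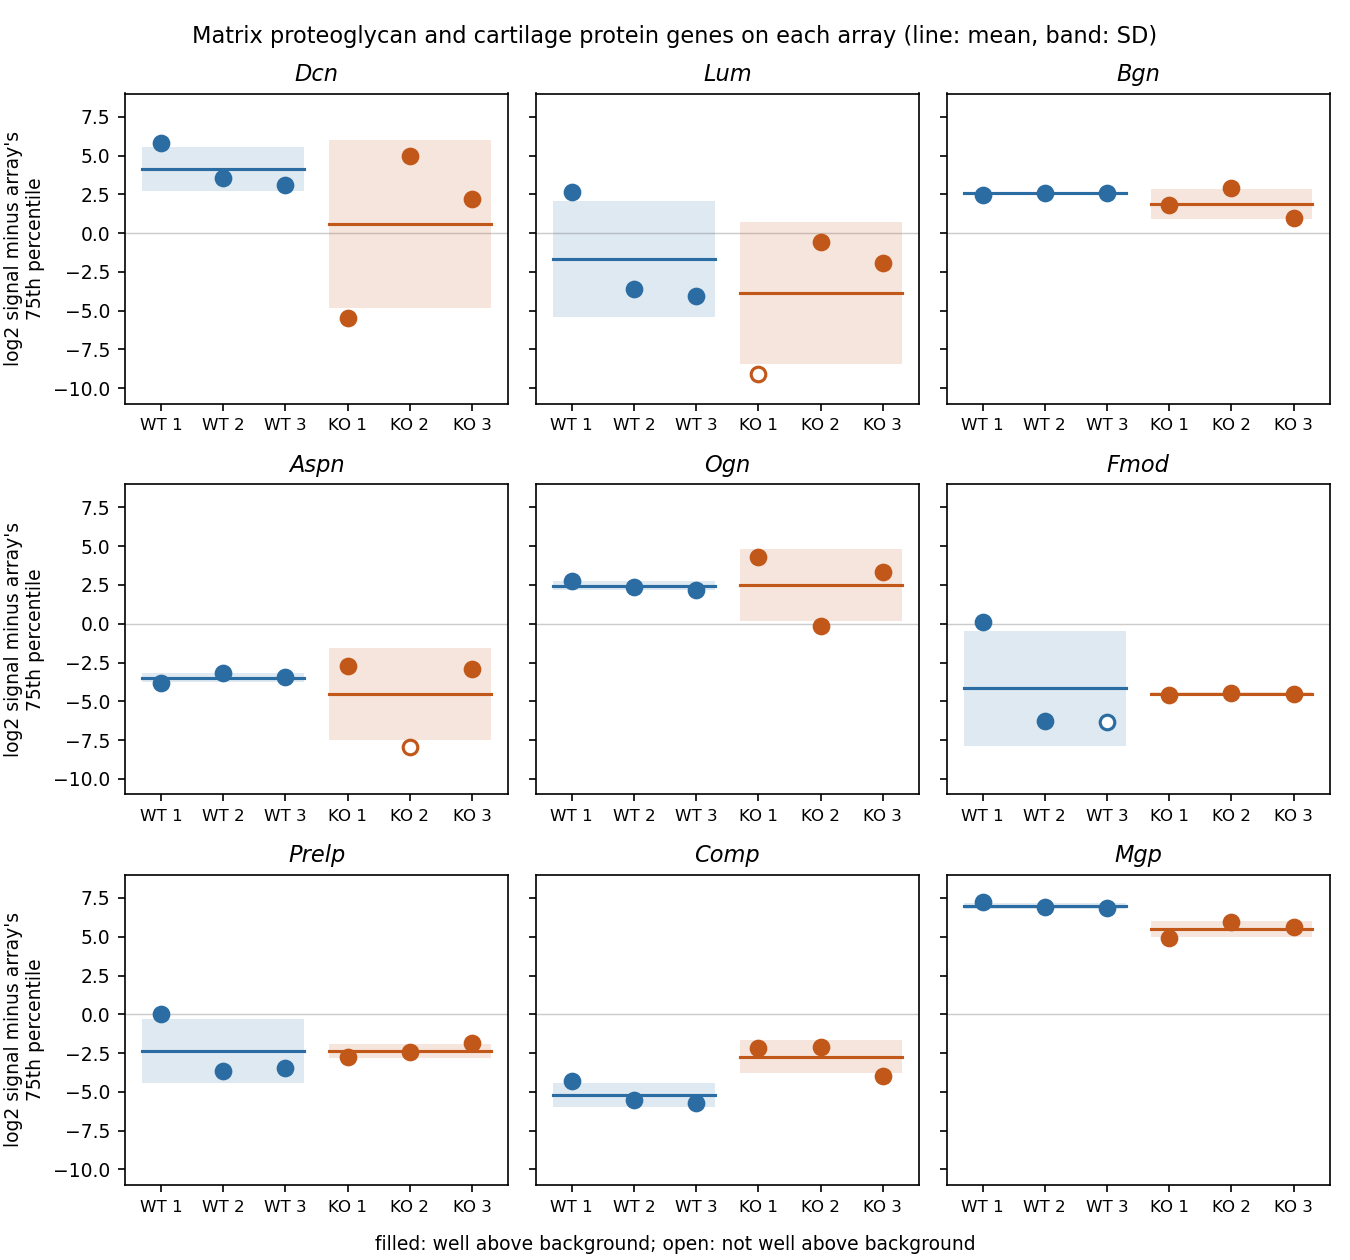
Level of each gene on each array (vertical axis: log2 processed signal minus the array's 75th percentile), with wild-type arrays (WT) in blue and Rap1 knockout arrays (KO) in orange; lines are group means, bands 1 SD (n = 3), and open circles were not well above background. Mgp is lower and Comp higher on every knockout array, Dcn and Lum are far lowest on knockout array 1, Aspn and Ogn are lowest on knockout array 2, and Fmod and Prelp are highest on wild-type array 1.

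Decorin, encoded by Dcn, carries 1 glycosaminoglycan chain, coats collagen fibrils and binds TGF-beta. Dcn (probe A_51_P334104) read 5.79, 3.54 and 3.13 on wild-type arrays 1, 2 and 3 and −5.47, 4.97 and 2.19 on knockout arrays 1, 2 and 3. Knockout array 1 was therefore the low one, while knockout arrays 2 and 3 read 4.97 and 2.19, the first above wild-type arrays 2 and 3 and the second below all of wild type. From the highest to the lowest array the level of Dcn spanned 2441-fold, a log2 range of 11.25. Features within 1 log2 unit of its mean level had a median log2 range of 0.94. All 6 arrays measured Dcn well above background. The fitted difference was −3.59 (SE 2.50, 95% interval −9.56 to 2.38, limma adjusted p = 0.564), and −0.57 without knockout array 1. Within slide 1, which held wild-type array 1 and knockout array 1, the difference was −11.25, and within slide 2 it was 0.24.

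Lumican, encoded by Lum, is a keratan sulfate proteoglycan of cornea and skin that spaces collagen fibrils. Lum (probe A_51_P167527) read 2.66, −3.61 and −4.05 in wild type and −9.08, −0.59 and −1.90 in knockout cells. Knockout array 1 did not measure it well above background, so its value there is only a bound, and the other 2 knockout arrays lay above wild-type arrays 2 and 3. The fitted difference was −2.19 (SE 2.65, interval −8.50 to 4.13, limma adjusted p = 0.717), it was 0.42 without knockout array 1 and −0.03 without wild-type array 1, and it ran from −11.74 on slide 1 to 2.59 on slide 2. Dcn and Lum were thus low on the same array.

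Knockout array 1 also had the lowest reading of 2 of the 10 fibroblast markers and of Has2, picked here after their values were seen. Thy1, a fibroblast surface protein, read −2.22 there, 1.92 and 1.99 on knockout arrays 2 and 3, and 2.88 to 3.79 in wild type. Pdgfra, a growth factor receptor, read −1.48 there, 1.99 and 0.12 on the other knockout arrays and 2.40 to 2.92 in wild type. Has2, a hyaluronan synthase, read −4.38 there, 0.36 and 0.02 on the other knockout arrays and 0.88 to 1.75 in wild type. Pdgfrb and Twist1 went the other way and were highest on that array, Pdgfrb at 4.56 against 2.21 to 3.90 elsewhere and Twist1 at 2.17 against 0.69 to 2.16. The other 6 fibroblast markers, Col1a1 at 6.62 and Vim at 6.90 among them, lay within the range of the other arrays. Between the groups, Thy1, Pdgfra, Prrx1, Fn1 and Has2 read lower on every knockout array than on any wild-type array. So did 5.89% of all features, and the groups of the other fibroblast markers overlapped. None of these genes passed the threshold. In cell cultures measured in bulk, fewer cells expressing a gene and less RNA per cell cannot be told apart. The part of these markers in the Dcn and Lum values was not tested.

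Biglycan, encoded by Bgn, is the closest relative of decorin and carries a pair of chains. Bgn (probe A_52_P162486) read 2.48, 2.59 and 2.62 in wild type and 1.81, 2.89 and 0.94 in knockout cells. Knockout arrays 1 and 3 lay below all wild-type arrays and knockout array 2 above them. The difference was −0.68 (SE 0.48, interval −1.82 to 0.46, limma adjusted p = 0.566), with −0.66 on slide 1 and −0.69 on slide 2. It was −0.21 without knockout array 3 and −1.19 without knockout array 2. Over the 6 arrays Bgn spanned 3.85-fold and Mgp 4.94-fold, while Dcn spanned 2441-fold.

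Asporin, encoded by Aspn, is a class I member that binds collagen and TGF-beta and was named for its run of aspartates. Aspn (probe A_51_P142813) read −3.79, −3.17 and −3.45 in wild type and −2.71, −7.92 and −2.90 in knockout cells. Knockout array 2 did not measure it well above background, and knockout arrays 1 and 3 lay above all of wild type. The difference was −1.04 (SE 1.34, interval −4.24 to 2.16, limma adjusted p = 0.732) and 0.67 without knockout array 2.

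Osteoglycin, encoded by Ogn, is a class III proteoglycan of bone, muscle and vessel walls. Ogn (probe A_51_P295085) read 2.76, 2.38 and 2.17 in wild type and 4.33, −0.15 and 3.30 in knockout cells. As for Aspn, knockout arrays 1 and 3 lay above wild type and knockout array 2 below it. The difference was 0.06 (SE 1.07, interval −2.50 to 2.62, limma adjusted p = 0.985), 1.38 without knockout array 2 and −0.86 without knockout array 1, so the group means were close while the knockout arrays differed by 22.3-fold among themselves.

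Fibromodulin, encoded by Fmod, is a keratan sulfate proteoglycan of tendon and cartilage that binds collagen. Fmod (probe A_51_P207622) read 0.11, −6.27 and −6.36 in wild type and −4.61, −4.43 and −4.51 in knockout cells. Wild-type array 1 stood above every other array, wild-type array 3 was not well above background, and the 3 knockout arrays lay between, within 0.17 of each other. The difference was −0.34 (SE 1.67, interval −4.32 to 3.64, limma adjusted p = 0.937), and 1.80 without wild-type array 1 (limma adjusted p = 0.0564).

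PRELP, encoded by Prelp, anchors basement membranes to collagen and carries few or no sugar chains. Its brighter probe (A_52_P486260) read 0.01, −3.66 and −3.49 in wild type and −2.77, −2.42 and −1.88 in knockout cells. The order was that of Fmod, with wild-type array 1 on top, the knockout arrays between and wild-type arrays 2 and 3 lowest. The difference was 0.03 (SE 0.97, interval −2.28 to 2.33, limma adjusted p = 0.993), and 1.22 without wild-type array 1. The second probe of Prelp (A_51_P439846) was well above background on wild-type array 1 only, at −5.77, and read −7.45 to −8.87 on the other 5, so both probes were brightest on the same array.

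Comp, the cartilage oligomeric matrix protein (probe A_51_P409010), read −4.28, −5.55 and −5.72 in wild type and −2.16, −2.09 and −3.96 in knockout cells, all well above background. Every knockout array lay above every wild-type array, though knockout array 3 lay close to wild-type array 1. The difference was 2.45 (SE 0.62, 5.45-fold, 95% interval 0.96 to 3.93, limma adjusted p = 0.387), on 3 of 3 knockout arrays. It was 2.12 on slide 1 and 2.61 on slide 2, and stayed between 2.12 and 3.06 when single arrays were left out. With normexp background correction, which adds an offset that compresses dim signals, it was 1.37, and with wild-type arrays 2 and 3 averaged the adjusted p was 0.936.

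Mgp, matrix Gla protein (probe A_51_P426270), read 7.22, 6.89 and 6.85 in wild type and 4.91, 5.94 and 5.63 in knockout cells, all well above background. Every knockout array lay below every wild-type array, and the nearest pair was wild-type array 3 and knockout array 2. The difference was −1.49 (SE 0.32, 2.81-fold, 95% interval −2.25 to −0.73, limma adjusted p = 0.312), on 3 of 3 knockout arrays. It was −2.31 on slide 1 and −1.09 on slide 2, and stayed between −1.72 and −1.20 when single arrays were left out. Counting the alike wild-type pair as 1 array gave −1.55 (limma adjusted p = 0.936), so neither Comp nor Mgp passed with these arrays counted separately or once.

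**Figure D2:**
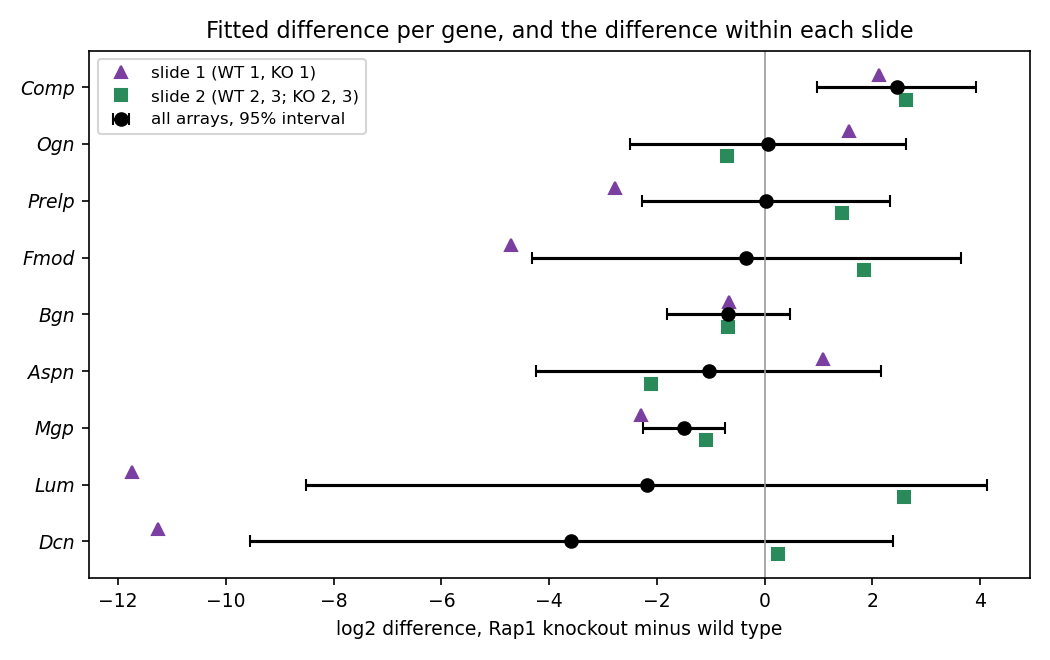
Fitted log2 difference (Rap1 knockout minus wild type, horizontal axis) for each gene with its 95% interval from limma (black), and the difference within slide 1 (triangles, 1 array a group) and slide 2 (squares, 2 arrays a group). The intervals of Comp and Mgp exclude 0 before adjustment and both slides share their sign, Bgn reads nearly the same on both slides, and the slides have opposite signs for Dcn, Lum, Aspn, Ogn, Fmod and Prelp.

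Beside Comp, tendon and cartilage markers were read for the same arrays. Scx, a tendon transcription factor, read 3.56 to 4.11 in wild type and 4.44 to 4.79 in knockout cells (difference 0.71, limma adjusted p = 0.474). The other tendon marker measured, Mkx, read −1.64, −0.72 and −0.57 in wild type and 0.62, −1.50 and −1.79 in knockout cells, with overlapping groups (difference 0.09, limma adjusted p = 0.961). The summed level of both, 3.60 to 4.16 in wild type and 4.46 to 4.87 in knockout cells, is mostly that of Scx. Of 8 chondrocyte markers 5 were compared, with a summed level of 2.74 to 3.28 in wild type and 1.94 to 3.97 in knockout cells, and Col9a1, Matn1 and Hapln1 could not be compared. The part of these cell type markers in the Comp values was not tested.

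Some of these genes lie next to or near each other in the genome, and their array patterns are set side by side here. In assembly GRCm38.p6, Dcn and Lum are adjacent protein-coding genes on chromosome 10, Fmod and Prelp are adjacent on chromosome 1, and Aspn and Ogn flank Omd, which encodes osteomodulin, on chromosome 13. Dcn and Lum were both highest on wild-type array 1 and lowest on knockout array 1. Aspn, Ogn and Omd were each highest on knockout array 1 and lowest on knockout array 2, with Omd at −3.35, −2.72 and −2.96 in wild type and 0.34, −5.21 and −2.17 in knockout cells. Fmod and Prelp were both highest on wild-type array 1, and wild-type arrays 2 and 3 were the lowest for both.

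As a description over 6 arrays, of which wild-type arrays 2 and 3 are nearly alike, the patterns of neighbours had a Pearson r of 0.97 for Fmod and Prelp, 0.91 for Aspn and Ogn and 0.90 for Dcn and Lum. With those 2 arrays averaged, r was 0.97, 0.94 and 0.93. Leaving out any 1 array, it was at least 0.91, 0.72 and 0.78, the last 2 without knockout array 2 and knockout array 1 respectively. On those arrays Aspn and Lum, respectively, were not well above background, so the low readings that weigh most in r are only bounds. Fmod on wild-type array 3 is also a bound. The 33 pairs of genes on different chromosomes ran from −0.76 to 0.79 (Dcn and Mgp), with a median of −0.02. Omd had an r of 0.93 with Ogn and 0.79 with its neighbour Aspn, about that of Dcn and Mgp, and of −0.90 with Dcn on another chromosome. Values as high or higher also occurred with genes outside the list. All these values share their libraries and scaling. The other genes of these clusters were mostly dim: Kera (chromosome 10) was well above background on 0 of 6 arrays, and Ecm2 (chromosome 13), the better probe of Epyc (chromosome 10) and Optc (chromosome 1) on 2, 2 and 3 arrays.

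**Figure D3:**
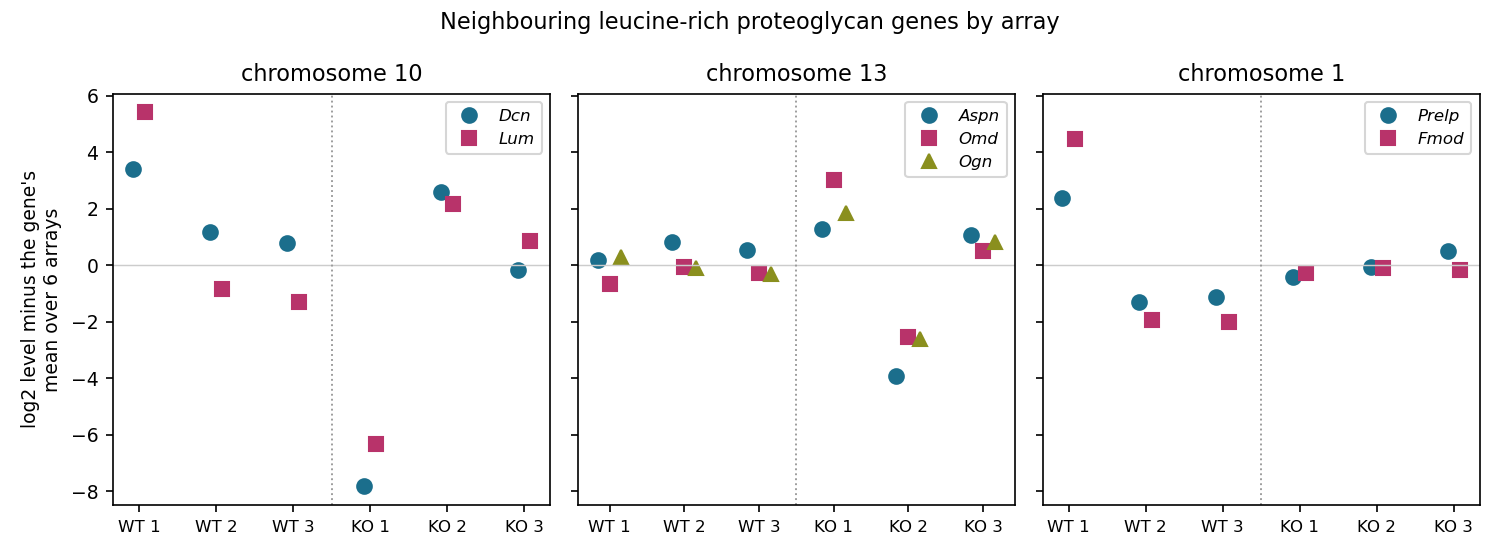
Levels of neighbouring genes on each array (vertical axis: log2 level minus the gene's mean over the 6 arrays; points are single arrays, WT wild type, KO Rap1 knockout). Neighbours share high and low arrays: Dcn and Lum are lowest on knockout array 1, Aspn, Omd and Ogn are highest on knockout array 1 and lowest on knockout array 2, and Prelp and Fmod are highest on wild-type array 1.

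The stretch where a TATA box would lie is shown for Fmod and Prelp and for Ogn and Aspn. It is the 30 bases from 40 to 11 bases before the annotated RefSeq start in GRCm38.p6, 5′ to 3′ on the gene's strand. Whether these sequences bear on the array patterns was not tested. RefSeq start sequences were found for 6 of the 10 genes, and not for Dcn or Lum. The stretches are chr1:134037214-134037243 (plus strand) for Fmod, chr1:133921412-133921441 (minus strand) for Prelp, chr13:49607975-49608004 (plus strand) for Ogn and chr13:49544403-49544432 (plus strand) for Aspn.
Fmod: gcaccgcacaagagactgcagaaataactt
Prelp: ccctccccaaactaacctccccaccccaat
Ogn: ccacatgggatttaaactgttgggccctga
Aspn: gtctagagtttagctagaagttttggctat
The letters TATAAA, searched on both strands, were in none of these (0 of 6 genes, Bgn and Vcan included), and in this window of 2.66% of 32851 RefSeq starts. In the full 300 bases around the start, 2 of the 6 genes, Ogn and Aspn, held them, as did 13.6% of all starts. The G and C share of those 300 bases was 51.0% for Fmod, 55.3% for Prelp, 42.3% for Ogn and 31.0% for Aspn, with a median of 52.7% over all starts.

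By the array pattern alone, the gene with the highest Pearson r over the 6 arrays, among features with a symbol and well above background on all arrays, was Enc1 for both Fmod (0.987) and Prelp (0.995). It was Itm2a for Dcn (0.997), Ap3s1 for Lum (0.993), Igsf8 for Bgn (0.996) and Rnf168 for Ogn (0.995). It was Mgat4a for Aspn (0.991), Mad2l1bp for Comp (0.998) and Il16 for Mgp (0.998). With 6 arrays many features score high: 400 of 11240 had an r above 0.95 with Comp, and 21 to 57 with each of the other 8 genes.

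Among 119 related genes in 7 lists, 80 were compared and none passed the threshold (limma, 0 higher, 0 lower, 8 at an unadjusted p under 0.05, smallest adjusted p = 0.291). The groups did not overlap for 5 upward (6.25%, against 11.4% of all features) and 6 downward (7.5%, against 5.89%), and 3 and 5 had an unadjusted p under 0.05 (3.75% and 6.25%, against 5.61% and 4.66%), so these shares lie near or below those of all features. The median difference was −0.10.

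Of the other small leucine-rich proteoglycans, 5 of 10 were compared, 0 passed, 1 lay above 0 and 4 below, with a median of −0.66. Podn (podocan) was the 1 with separated groups, at −3.77, −4.52 and −5.19 in wild type and −5.81, −5.41 and −7.53 in knockout cells (difference −1.76, SE 0.62, limma adjusted p = 0.474). Its reading on knockout array 3 was near the floor, where the second Prelp probe at −7.77 was not well above background, so the size is uncertain. Omd differed by 0.66 (SE 1.26), Chad, the cartilage protein chondroadherin, by −0.04 (SE 0.35), and Podnl1 by −0.92 (SE 0.90). Of the large and cell-surface proteoglycans and link proteins, 18 of 26 were compared, 7 above 0 and 11 below, median −0.13. That median changed sign with single arrays left out, being 0.03 when wild-type array 1 was dropped, 0.10 when knockout array 1 was and 0.06 when knockout array 3 was, and it stood at 0.28 on slide 2 alone. Acan, the aggrecan core protein, differed by 0.60 (SE 0.71), Ncan (neurocan) by 0.56 (SE 0.34), Cspg4 by −0.13 (SE 0.53) and Srgn (serglycin) by 1.75 (SE 0.86), none past the threshold. Groups were separated for Hapln3, a link protein, at 0.34 (SE 0.22), and Tgfbr3, the proteoglycan receptor betaglycan, at −1.10 (SE 0.26), both picked here for that separation.

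The enzymes that build the sugar chains were compared for 25 of 32 genes, with 14 above 0, 11 below and a median of 0.15. Xylt1 and Xylt2, which add the first xylose to the core protein, differed by −0.21 (SE 0.45) and 0.62 (SE 0.23), and Xylt2 was separated upward. B4galt7 and B3galt6, which extend the linker, differed by 0.41 (SE 0.39) and 0.23 (SE 0.26). Among the 4 genes with separated groups, Csgalnact1, which starts chondroitin chains, read −0.53, 0.79 and 0.91 in wild type and −4.16, −1.90 and −2.55 in knockout cells. That is a difference of −3.26 (SE 0.66, limma adjusted p = 0.291), lower on 3 of 3 knockout arrays. Dse, the epimerase that makes dermatan sulfate, differed by −0.58 (SE 0.22), and Slc26a2, the sulfate importer, by 0.30 (SE 0.21). Csgalnact1, Dse and Slc26a2 were named after their values were seen.

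For hyaluronan and proteoglycan cleavage, 10 of 14 genes were compared (6 above 0, 4 below, median 0.22, turning to −0.07 when wild-type array 2 was dropped and −0.16 when knockout array 2 was, and 0.57 when knockout array 1 was). Has1, a hyaluronan synthase, differed by 2.10 (SE 1.99), and Has2, which was separated downward, by −2.61 (SE 1.21, limma adjusted p = 0.497). The hyaluronidases Hyal1 and Hyal2 differed by 0.04 (SE 0.56) and 0.57 (SE 0.30). For cartilage matrix and chondrocyte factors, 11 of 23 were compared (7 above 0, 4 below, median 0.29, and −0.06 without knockout array 2 to 0.51 without wild-type array 1). Col2a1, the main cartilage collagen, differed by −0.88 (SE 0.77), and Col11a1 and Col11a2 by −0.66 (SE 0.80) and 0.29 (SE 0.40). Groups were separated for Col9a2 at 1.18 (SE 0.41) and the matrilins Matn4 at 1.28 (SE 0.34) and Matn2 at −1.54 (SE 0.47), the matrilins named after their values were seen. Matn4 was dim in wild type (−6.42, −6.88 and −7.38), and on wild-type array 3 Fmod at −6.36 was already not well above background. The size of the Matn4 difference is therefore uncertain.

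The 4 other thrombospondins, relatives of Comp, had overlapping groups: Thbs1 differed by 0.10 (SE 1.20), Thbs2 by −0.35 (SE 0.93), Thbs3 by 0.42 (SE 0.34) and Thbs4 by 3.24 (SE 2.03). Thbs4 read 1.28, −5.09 and −4.91 in wild type and 3.04, 0.40 and −2.43 in knockout cells, so wild-type array 1 lay above 2 of the knockout arrays. For vitamin K carboxylation, which Mgp needs, and mineral control, all 9 of 13 genes compared lay below 0 (median −0.32), none with separated groups and none past the threshold. Dropping wild-type array 1 gave a median of −0.12 and dropping knockout array 3 one of −0.66, and it was −1.86 on slide 1 and 0.10 on slide 2. The carboxylase Ggcx differed by −0.17 (SE 0.36), the vitamin K reductases Vkorc1 and Vkorc1l1 by −0.27 (SE 0.24) and −0.18 (SE 0.31), and Bglap, the bone Gla protein osteocalcin, by −0.12 (SE 0.31).

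**Figure D4:**
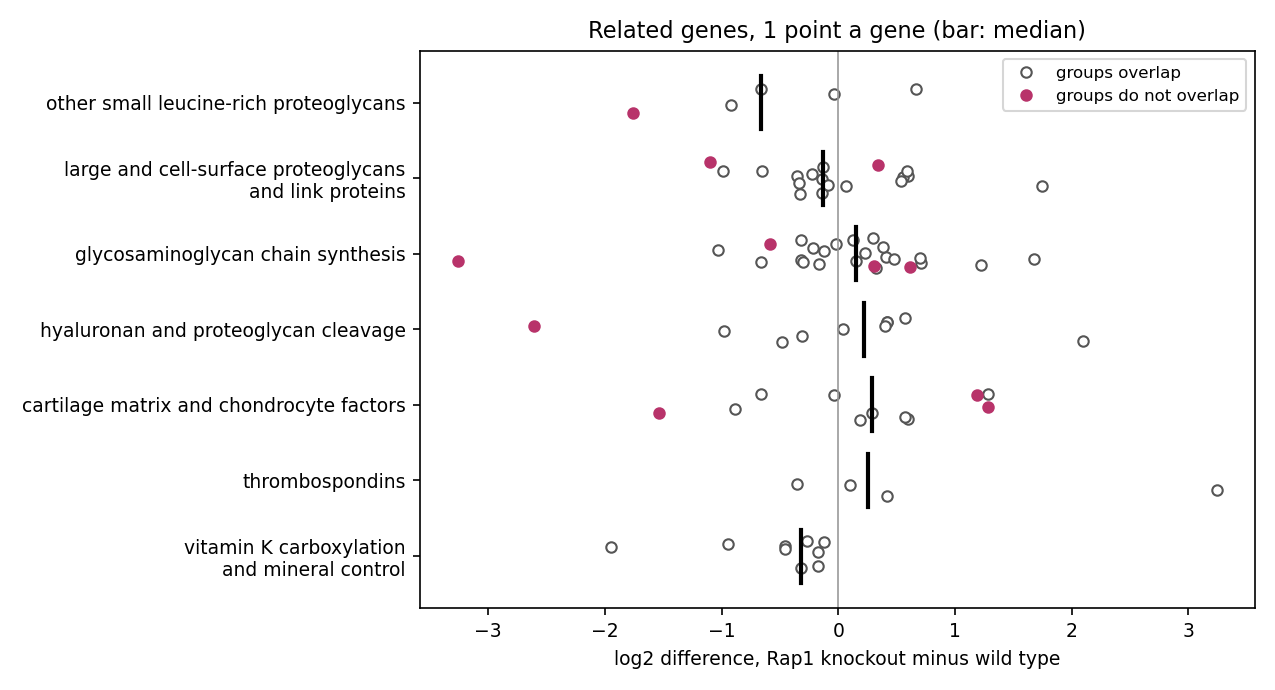
Log2 difference (Rap1 knockout minus wild type, horizontal axis) of each related gene compared, by list; filled points have groups that do not overlap and bars are list medians. Most points lie within 1 of 0, and Csgalnact1 at −3.26 and Thbs4 at 3.24 are the outermost.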

How the data were processed

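The authors deposited 1 scanner file per array. Per the file headers these are intensity values written by version 10.5.1.1 of Feature Extraction, Agilent's software: a background-corrected processed signal, the spot and local background signals, and flags. Their deposited value table holds log2 values made by steps not given in the sources used here, though the submitters' processing notes name limma. Knockout columns 1, 2 and 3 of that table matched scanner files 2, 3 and 1 (r = 0.99999 after normexp and quantile steps), and replicate numbers here are those of the scanner files.

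Control spots (1639 of 45018) and outlier spots (74 to 120 per array) were left out, no spot was saturated, and spots were averaged to 41174 probes. Levels are log2 processed signal minus each array's 75th percentile. Probes had to be well above background throughout either group (25520 were), and the remaining probe with the highest mean stood for its gene. Names came from RefSeq accessions matched without versions to a GRCm38.p6 gene table (23374 probes matched). The files name build mm8, so besides names only the chromosome, type and order of genes were taken from that table. The stretches before the starts came from a separate set of RefSeq start sequences. The scanner files have no gene name column. Groups were compared by limma 3.58.1 in R 4.3.3 (lmFit, eBayes, 2-sided, no block, Benjamini-Hochberg over 19657 features, threshold 0.05). The code was run on simulated independent arrays, without an alike pair or slides, so that run does not cover these traits of the real arrays. 22 features lacked a value on an array because of outlier spots, none of the 9 genes among them. Where no array of a group was well above background, a bound was set against the lowest signal well above background.

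All 9 genes, Terf2ip, the first 4 genes compared in each related list, genes past the threshold and the closest feature to each gene were named by rule, and other genes were named after their values were seen. Members and lists were chosen with earlier results of these data known. Alternatives were other background corrections, scalings and filters, the value table, averaging a gene's probes, a robust variance with a trend, the replicate number or slide as a block, each slide alone, wild-type arrays 2 and 3 averaged, and each array left out.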

Additional observations from a re-analysis of the deposited data

How the results depend on the processing

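Under all 19 alternatives, 18 of them with a test, Mgp stayed below 0 (−2.31 to −1.09), Bgn below 0 (−1.19 to −0.21) and Comp above 0 (1.37 to 3.06), with 0 of the 3 past the threshold (limma adjusted p from 0.0966, 0.414 and 0.115 to 0.945 each). The filters, the averaging of a gene's probes, the robust variance and the blocks could not move these 1-probe estimates, only their p-values. Normexp and the value table gave nearly the same values (Comp 1.37 and 1.38), so the alternatives are not independent. Dcn turned to 0.24 on slide 2 alone, and it lay between −5.79 and −0.57 with single arrays left out. Lum turned to 2.59 on slide 2 alone, and ran from −3.83 to 0.42 with arrays left out. Fmod turned to 1.84 on slide 2 alone (limma adjusted p = 0.0429), the 1 of the 9 genes past the threshold there, with 2 related genes and 302 features in all. The only wild type on that slide is the near-alike pair. With arrays left out Fmod ran from −1.44 to 1.80 and Aspn from −1.94 to 0.67, and Aspn turned to 1.09 on slide 1. Ogn, near 0, turned to −0.040 with normexp, −0.036 with quantile normalisation, −0.038 with the value table, −0.70 on slide 2 and −0.025 with wild-type arrays 2 and 3 averaged (−0.86 to 1.38 with arrays left out). Prelp turned to −0.062 with normexp and −0.057 with the value table, −0.57 with those arrays averaged and −2.77 on slide 1 (−0.61 to 1.22 with arrays left out). Over all features, the count past the threshold was 2; it was 4 with the mean of a gene's probes and 0 with the replicate block, the slide block, wild-type arrays 2 and 3 averaged (692 at an unadjusted p under 0.05) or probes above background on all arrays, which removes Terf2ip. It ran from 0 to 64 with single arrays left out (64 without wild-type array 1). Terf2ip missed the threshold at −6.63 with the replicate block (limma adjusted p = 0.177) and the slide block (0.0626), at −6.62 when the alike pair was averaged (0.0652), and in 4 of the 6 fits that left out an array (those 4 gave −6.86 to −6.58, and all 6 gave −6.86 to −6.27). The deviations of arrays with the same scanner file number correlated at 0.01, 0.05 and −0.08. These values cannot settle whether arrays were paired, because wild-type arrays 2 and 3 are nearly alike and the value table numbers the knockout arrays otherwise. The replicate block changed no call of the 9 genes. Scaling by the array median moved the median of all features from 0.07 to 0.17, and no filter moved it to −0.08. Signal over background limits Lum on knockout array 1, Aspn on knockout array 2 and Fmod on wild-type array 3. The cause of these changes was not tested.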
